A study of Mus musculus with 6 samples.

Results

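Cycling crypt epithelium is the set of colon epithelial cells that carried RNA of the proliferation genes Mki67 and Top2a in single-cell libraries of a mouse graft-versus-host disease (GVHD) study. Its members were chosen by measured values. A barcode was a member if it had at least 500 detected genes, at most 10% mitochondrial UMIs (unique molecular identifiers, each counting 1 RNA molecule), at least 5 UMIs summed over Epcam, Krt8 and Krt19, at least 2 UMIs summed over Mki67 and Top2a, and no UMI of the myeloid receptor gene Csf1r or of the leukocyte gene Ptprc. There were 815 members among 34369 cells that passed the filters in 4 libraries, and 2230 cells met the epithelial conditions alone. The study deposited 60605 barcodes in 6 libraries.

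The 4 libraries came from colons of IL-34-/- and WT transplant recipients, and are named IL34KO and WT as in the labels. For each recipient genotype 1 library was made from a sort of donor CD11b+ CD64+ macrophages and 1 from a sort of donor T cells. The other 2 libraries, of macrophages from mice given bone marrow (BM) alone and from mice given bone marrow plus spleen cells (GVHD), lie outside the rule. Whether the WT and IL34KO recipients were given spleen cells, their strain and age, the IL-34-/- allele, the number of animals and whether both sorts came from the same mice are not stated in the labels used here. Epithelium was not a target of either sort, so the number of members per library reflects what passed the sort and not the make-up of the colon. With 1 library per group there are no replicates, no test was made, and every interval below covers counting error only.

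The colon epithelium is renewed from stem cells at the base of the crypts, which depend on Wnt signalling and are marked by Lgr5. Their progeny divide as transit-amplifying cells while they move up the crypt, and then leave the cycle as absorptive colonocytes or as secretory cells, chiefly mucus-making goblet cells and hormone-making enteroendocrine cells. Il34 encodes interleukin-34, a second ligand of the receptor CSF1R beside Csf1, and epithelium is among its sources. Cycling crypt cells are a target of GVHD, in which donor T cells and interferon-gamma injure the gut lining.

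The macrophage sort labelled IL34KO held 295 members among 579 epithelial cells, and that labelled WT held 131 among 243. The T-cell sort labelled IL34KO held 174 members among 707 epithelial cells, and that labelled WT held 215 among 701. Members therefore made up 50.9% (exact 95% interval 46.8 to 55.1) of epithelium in the macrophage sort labelled IL34KO, against 53.9% (47.4 to 60.3) in that labelled WT. In the T-cell sort they made up 24.6% (21.5 to 28.0) in the library labelled IL34KO and 30.7% (27.3 to 34.2) in that labelled WT. At full depth the intervals of the 2 recipients overlapped in each sort, and those of the 2 sorts did not. The shares depended on depth. With every cell thinned to 2000 UMIs before gating, the shares were 23.9% (172 of 720 cells) and 15.8% (51 of 322) in the macrophage sorts labelled IL34KO and WT. They were 13.7% in each of the T-cell sorts (83 of 604 and 117 of 855). The order of the macrophage sorts thus turned. Gating after thinning also counts a different set of epithelial cells, so the shares differ in more than depth.

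Median depth per member was 21372 and 35514 UMIs in the macrophage sorts labelled IL34KO and WT, and 15250.5 and 14068 in the T-cell sorts labelled IL34KO and WT. Non-cycling epithelium of the same libraries, the 1141 epithelial cells with 0 UMIs of Mki67 and Top2a, had medians of 11021, 16365, 5035 and 8844 UMIs in the same order of libraries. Members' median share of mitochondrial UMIs was 5.41% and 6.80% in the macrophage sorts labelled IL34KO and WT, and 4.80% and 4.6% in the T-cell sorts. The whole libraries held 84394258 to 114425913 UMIs each. Of the members, 7, 1, 2 and 3 had a barcode that also occurs in another library, and 2 of these, both in the macrophage sort labelled IL34KO, had more UMIs there. The T-cell sort labelled IL34KO stood apart from the other 3 libraries for 3 of 1061 well-measured genes, each below 1/2 of the lowest other library in members, in non-cycling epithelium and in leukocytes alike, while by the same rule no gene set any of the other libraries apart. Among them were Rpl35, which encodes a ribosomal protein, and Gm10076. In members Rpl35 had 455 CPM (UMIs of the gene scaled to a total of 1000000 UMIs in the class) in the T-cell sort labelled IL34KO and 1091 CPM in that labelled WT, and 1193 and 1075 CPM in the macrophage sorts labelled IL34KO and WT. The labels name both 5′ and 3′ kits for the series. The kit of each library is not stated there, and its part in any difference between libraries was not tested.

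Il34 was not lower in the libraries labelled IL34KO. Members had 6.79 and 4.77 CPM of Il34 in the macrophage sorts labelled IL34KO and WT, from 55 and 25 UMIs, and 3.67 and 2.95 CPM in the T-cell sorts labelled IL34KO and WT, from 11 and 10 UMIs. The ratio of IL34KO to WT was 1.42 (95% interval 0.871 to 2.38) in the macrophage sort and 1.24 (0.479 to 3.26) in the T-cell sort, and both intervals include no difference. The UMIs come from 1 end of a transcript, so a count of this kind does not check an allele whose deleted part lies elsewhere. The groups are called by their labels throughout, and directions drawn from them hold only as far as the labels do. Csf1, the other CSF1R ligand, had 12.7 and 15.5 CPM in the macrophage sorts labelled IL34KO and WT and 6.33 and 9.16 CPM in the T-cell sorts labelled IL34KO and WT.

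The members' other genes were those of colon epithelium. Summed over 15 epithelial identity genes, members had 7776, 8748, 8433 and 8311 CPM in the macrophage sorts labelled IL34KO and WT and the T-cell sorts labelled IL34KO and WT. Cycling leukocytes of these libraries, cells with Ptprc, at least 2 UMIs of Mki67 and Top2a and none of the epithelial gate genes, had 56.1 to 96.5 CPM. The gates chose these classes on epithelial genes and Ptprc, so this contrast was largely fixed in advance. Non-cycling epithelium had 11812, 11350, 14243 and 14352 CPM of the list in the same order, above members in each library. Beside the gate genes, Cldn7, a tight-junction gene, had 959.5 to 1237 CPM in the 4 libraries, and Lgals4, a galectin of gut epithelium, had 2254 to 2648 CPM. Hoxb13, a homeobox gene of the distal colon, had 61.4 and 88.2 CPM in the macrophage sorts labelled IL34KO and WT and 73.0 and 60.3 CPM in the T-cell sorts. The rule did not use Cldn7, Lgals4 or Hoxb13.

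Markers of other cells were low but not absent. The 14 monocyte and macrophage markers summed to 292 to 372 CPM in members, against 17743 to 21839 CPM in cycling leukocytes, and none was at 0 in any library. The 13 T-cell markers summed to 19.5 to 61.1 CPM in members, against 1010 to 3992 CPM in cycling leukocytes, and in the macrophage sort labelled WT 7 of them had 0 UMIs. Members were chosen without Ptprc and Csf1r and the leukocytes with Ptprc, so these gaps were largely set by the gates. The 8 neutrophil markers summed to 85.8 CPM in the macrophage sort labelled IL34KO and 21.8 CPM in that labelled WT, and to 0.667 and 4.14 CPM in the T-cell sorts labelled IL34KO and WT. B-cell and plasma-cell markers stayed at or below 4.14 CPM and red cell markers at or below 1.34 CPM. Fibroblast markers reached 28.4 CPM in the macrophage sort labelled IL34KO and endothelial markers 23.7 CPM in the T-cell sort labelled IL34KO.

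At the edge of the rule, levels of mitotic genes lay between those of other members and those of non-members. The 43 members of the macrophage sort labelled IL34KO with exactly 2 UMIs of Mki67 and Top2a had 504 CPM summed over 30 G2/M genes, the 79 cells with 1 UMI, just outside, had 239 CPM, and cells with none had 168 CPM. In the macrophage sort labelled WT the corresponding values were 282, 159 and 120 CPM. In the T-cell sort labelled IL34KO they were 779, 253 and 142 CPM, and in that labelled WT 588, 250 and 128 CPM. Members with more than 10 such UMIs had 2646 to 3910 CPM. The 27 members with an epithelial sum of only 5 to 7 UMIs numbered 7, 3, 13 and 4 by library. They were shallow, with median depths of 1079 to 1796 UMIs. These cells had 1777 and 3534 CPM of macrophage markers in the macrophage sorts labelled IL34KO and WT. In the T-cell sorts labelled IL34KO and WT they had 12095 and 1455 CPM, while all members had 292 to 372 CPM by library.

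The cell-cycle machinery separated members from non-cycling epithelium in every library. Since the members were chosen on Mki67 and Top2a, this contrast describes them and tests nothing. Of 6712 genes compared, which had at least 20 CPM in members or in non-cycling cells in every library and are not genes of the rule, 254 (3.78%) were at least 2-fold higher in members in all 4 libraries and 35 (0.521%) at least 2-fold lower, with 5 CPM added to both values. All 30 genes of the G2/M list were among the higher ones, with median log2 ratios of 3.25 and 3.25 in the macrophage sorts labelled IL34KO and WT and 3.41 and 3.36 in the T-cell sorts. Of the 23 S-phase genes compared, 21 were among them, with medians of 2.18, 2.08, 2.30 and 2.22 in the same libraries. The median over all genes lay between 0.08 and 0.17.

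**Figure D1:**
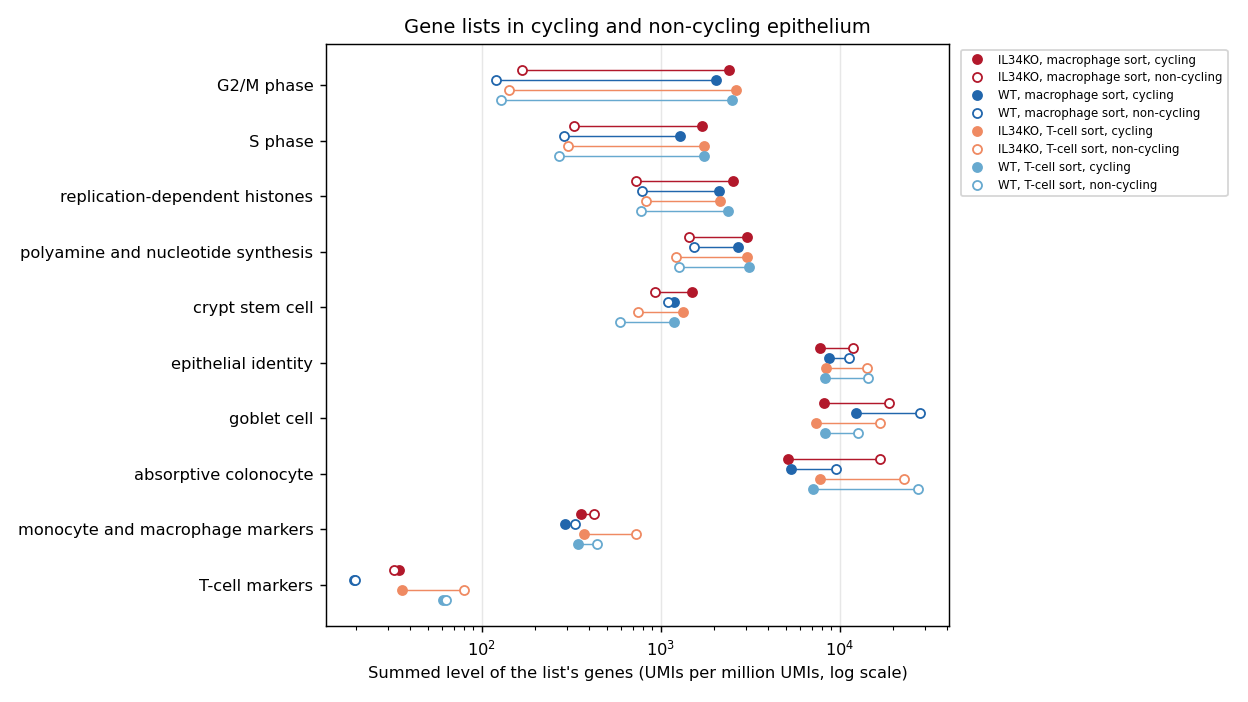
Summed level of gene lists in CPM (log axis) in cycling (filled circles) and non-cycling (open circles) epithelium of the 4 libraries, 1 line per library. The G2/M list lay between 2030 and 2639 CPM in cycling cells and between 120 and 168 CPM in non-cycling cells, while the goblet and absorptive lists were lower in cycling cells of every library.

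The mitotic genes gave the widest separation. Cenpf, which encodes a kinetochore protein, had 173 CPM in members and 5.06 CPM in non-cycling cells of the macrophage sort labelled IL34KO, and 152 and 3.92 CPM in that labelled WT. In the T-cell sorts it had 199 CPM in members and 3.55 CPM in non-cycling cells under the IL34KO label, and 199 and 3.97 CPM under the WT label. The 2 classes, which were set apart on Mki67 and Top2a, did not overlap in these library values. Ube2c, the ubiquitin-conjugating enzyme that works with the anaphase-promoting complex, ranged from 161 to 223 CPM in members and from 4.70 to 8.28 CPM in non-cycling cells. Birc5, the survivin gene of the chromosomal passenger complex, ranged from 133 to 166 CPM in members and from 1.57 to 7.39 CPM in non-cycling cells. Tpx2, a spindle assembly factor, had 78.3 to 89.6 CPM in members and 1.48 to 2.35 CPM in non-cycling cells.

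The kinases and cyclins that drive mitosis were close to 0 in non-cycling cells, which were chosen for having no UMI of Mki67 or Top2a. The 274 epithelial cells with 1 such UMI are in neither class. Cdk1, the mitotic kinase, had 65.9 and 61.5 CPM in members of the macrophage sorts labelled IL34KO and WT, and 5.84 and 3.13 CPM in their non-cycling cells. Within the T-cell sorts labelled IL34KO and WT it had 86.0 and 81.2 CPM in members, and 5.92 and 4.47 CPM in non-cycling cells. Its partner Ccnb1, cyclin B1, had 59.9, 51.6, 60.3 and 57.0 CPM in members of these 4 libraries, in the same order, and at most 1.77 CPM in non-cycling cells. At a fixed depth of 2000 UMIs per cell, 15.2% of members had a UMI of Cdk1 in the macrophage sort labelled IL34KO, against 3.51% of non-cycling cells, and the share among leukocytes of that library was 1.59%. Without thinning the share of members was 53.9%. The other 3 libraries gave 11.2% to 16.6% of members and 1.10% to 1.55% of non-cycling cells at 2000 UMIs.

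Among S-phase genes, Pclaf, which encodes a factor that binds PCNA at replication forks, had 181 and 156 CPM in members of the macrophage sorts labelled IL34KO and WT and 205 and 222 CPM in members of the T-cell sorts, with 6.51 to 8.95 CPM in non-cycling cells. Mcm7, a subunit of the replicative helicase, had 48.1 to 74.2 CPM in members and 3.92 to 8.56 CPM in non-cycling cells. Pcna itself was less sharply divided, with 95.9 to 150.4 CPM in members and 37.0 to 54.1 CPM in non-cycling cells. Tyms, thymidylate synthase, had 78.1 to 105 CPM in members and 17.5 to 29.8 CPM in non-cycling cells. Of the 11 histone genes compared 7 were at least 2-fold higher in members of all libraries, among them the linker histone gene Hist1h1b, with 95.7 to 145 CPM in members and 2.35 to 5.45 CPM in non-cycling cells. Of 19 polyamine and nucleotide synthesis genes compared 4 passed this fold, among them Ncl, the nucleolin gene, with 729 to 900.2 CPM in members and 237 to 314 CPM in non-cycling cells. Over all genes compared, 3.78% were higher in members by this fold in all libraries.

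Promoters of mitotic genes classically hold a CCAAT box and a cell-cycle homology region, and those of replication genes hold E2F sites. The promoters of the S and G2/M lists were searched on both strands, over 250 bases before to 50 after the RefSeq start. The box was searched by the letters CCAAT, and E2F sites by TTTCGCGC, by TTTGGCGC or by TTTCCCGC. The cell-cycle homology region was searched by TTTGAA, and the variant by TTCGAA. Of the G2/M list, whose promoters were found for 26 of 30 genes, 76.92% held a CCAAT box, 76.92% a cell-cycle homology region and 3.85% an E2F match. Of the S-phase list, found for 25 of 30, 60.0% held a CCAAT box, 16.0% a cell-cycle homology region and 40.0% an E2F match. Among the promoters, 1 each, of 27025 genes the shares were 37.92%, 19.41% and 1.9%. Matches may overlap, as TTTCGCGC and CCAAT do in Mcm7. The 4 promoters below, of the G2/M genes Cenpf and Ube2c and the S-phase genes Pclaf and Mcm7, were chosen because they hold matches, which are shown in capitals (RefSeq, GRCm38.p6, the build of the files, written 5′ to 3′ on the gene's strand).
Cenpf, chr1:189688037-189688336, minus strand: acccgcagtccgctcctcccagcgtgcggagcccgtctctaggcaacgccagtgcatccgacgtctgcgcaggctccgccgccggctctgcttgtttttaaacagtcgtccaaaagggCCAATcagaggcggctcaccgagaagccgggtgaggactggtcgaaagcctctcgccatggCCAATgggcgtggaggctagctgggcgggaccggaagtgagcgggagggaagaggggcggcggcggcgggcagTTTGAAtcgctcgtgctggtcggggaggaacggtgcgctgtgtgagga
Ube2c, chr2:164769679-164769978, plus strand: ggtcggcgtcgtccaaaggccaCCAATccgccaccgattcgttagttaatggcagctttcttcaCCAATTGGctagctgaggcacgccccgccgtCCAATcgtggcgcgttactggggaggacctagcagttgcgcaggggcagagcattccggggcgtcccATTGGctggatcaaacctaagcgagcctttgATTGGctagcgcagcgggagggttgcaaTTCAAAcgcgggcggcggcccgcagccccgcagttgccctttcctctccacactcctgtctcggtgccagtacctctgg
Pclaf, chr9:65890073-65890372, plus strand: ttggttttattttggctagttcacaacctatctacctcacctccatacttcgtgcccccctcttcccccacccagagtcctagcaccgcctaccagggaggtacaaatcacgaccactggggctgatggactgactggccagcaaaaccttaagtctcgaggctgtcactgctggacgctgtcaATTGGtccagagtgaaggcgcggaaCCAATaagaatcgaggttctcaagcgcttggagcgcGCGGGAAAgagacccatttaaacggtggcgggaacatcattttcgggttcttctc
Mcm7, chr5:138171834-138172133, minus strand: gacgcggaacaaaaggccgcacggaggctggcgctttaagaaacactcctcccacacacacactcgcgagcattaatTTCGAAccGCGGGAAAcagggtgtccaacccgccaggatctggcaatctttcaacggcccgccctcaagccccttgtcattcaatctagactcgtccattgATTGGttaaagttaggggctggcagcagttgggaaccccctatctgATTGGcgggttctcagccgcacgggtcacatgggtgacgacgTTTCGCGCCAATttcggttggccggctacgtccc

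Cenpf holds 2 CCAAT boxes and 1 cell-cycle homology region, and Ube2c holds 6 CCAAT boxes, over both strands, and 1 cell-cycle homology region. Pclaf holds 2 CCAAT boxes and 1 E2F match, and Mcm7 holds 3 CCAAT boxes, 1 cell-cycle homology region and 2 E2F matches. The windows of Birc5 and Nusap1, which separated members nearly as widely, hold none of these letters. A match describes these letters and no binding.

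Genes of mature cells were lower in members. The 35 genes at least 2-fold lower in all libraries were led by Car4, a carbonic anhydrase of surface colonocytes, with 2.96 and 0.382 CPM in members of the macrophage sorts labelled IL34KO and WT, against 54.1 and 29.0 CPM in their non-cycling cells. In the T-cell sorts labelled IL34KO and WT, Car4 had 7.33 and 2.36 CPM in members, against 158 and 94.0 CPM in non-cycling cells. Of 19 absorptive genes compared 6 passed this fold, against 0.521% of all genes compared. Guca2a, the guanylin gene, had 388 to 504 CPM in members and 1353 to 2037 CPM in non-cycling cells. Krt20, a keratin of the upper crypt and surface, had 96.0 and 61.7 CPM in members of the macrophage sorts labelled IL34KO and WT, against 379.8 and 142 CPM in non-cycling cells, and 127 and 81.5 CPM in members of the T-cell sorts, against 808 and 862 CPM. Cdkn1a, the p21 inhibitor of cyclin-dependent kinases, was lower in members too, with 79.4 to 119.7 CPM, against 149 to 386 CPM, although in the macrophage sort labelled WT the gap was small.

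Goblet genes were lower in members but present. Muc2, the main secreted mucin, had 2018 CPM in members and 6048 CPM in non-cycling cells of the macrophage sort labelled IL34KO, and 2450 and 7217 CPM in that labelled WT. The T-cell sorts had 1640 CPM in members and 5147 CPM in non-cycling cells under the IL34KO label, and 1814 and 2959 CPM under the WT label. Of the 20 goblet genes compared 3 were at least 2-fold lower in every library, against 0.521% of all genes compared. Fcgbp and Zg16, which encode mucus proteins, were among them. Of the enteroendocrine genes, Sct, the secretin gene, had a UMI in 8.81% and 14.5% of members of the macrophage sorts labelled IL34KO and WT and in 8.62% and 11.2% of members of the T-cell sorts. In non-cycling cells of the same libraries the shares were 9.27%, 14.5%, 10.2% and 10.2%, and in leukocytes they were at most 0.383%. These shares are at full depth, and members were deeper than non-cycling cells in every library. With cells thinned to 2000 UMIs, 1.77%, 4.03%, 1.97% and 3.90% of members had a Sct UMI, in the same order. The shares of non-cycling cells were then 3.51%, 4.48%, 4.97% and 3.29%. Members were thus higher only in the T-cell sort labelled WT, and the intervals overlapped in each library. Chga, which encodes chromogranin A, had 3, 0, 28 and 1 UMIs in members of the macrophage sorts labelled IL34KO and WT and the T-cell sorts labelled IL34KO and WT. In the T-cell sort labelled IL34KO, 1 cell held 99.5% of the 797 UMIs of the peptide YY gene Pyy, and 1 cell held 98.4% of the 188 UMIs of Chgb. Tuft-cell genes did not reach 20 CPM, with 6.88 to 10.0 CPM summed over 11 genes.

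Stem cell genes, many of them Wnt targets, summed to a higher level in members of 3 libraries and to nearly the same level in the macrophage sort labelled WT. The list of 22 summed to 1489 CPM in members and 936 CPM in non-cycling cells of the macrophage sort labelled IL34KO, and to 1188 and 1104 CPM in that labelled WT. Within the T-cell sorts it summed to 1342 CPM in members and 753 CPM in non-cycling cells under the IL34KO label, and to 1192 and 597 CPM under the WT label. The median log2 ratio over the 11 genes compared was 0.96 and -0.01 in the macrophage sorts, and 0.97 and 1.13 in the T-cell sorts. The list's summed level is no marker of these cells by itself, since cycling leukocytes had 887 to 1168 CPM of it. Its defining gene Lgr5 had at most 0.167 CPM in cycling leukocytes.

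Single members were spread over the cycle. Each member with at least 10 UMIs of the S and G2/M lists together was placed by the S list's share of them, as S-leaning at 2/3 or more and as G2/M-leaning at 1/3 or less. In the macrophage sorts labelled IL34KO and WT, 39.0% (33.4 to 44.8) and 39.7% (31.3 to 48.6) of members were G2/M-leaning, and 23.4% and 19.1% were S-leaning. In the T-cell sorts labelled IL34KO and WT, 40.2% (32.9 to 47.9) and 34.9% (28.5 to 41.7) were G2/M-leaning, and 20.1% and 24.7% were S-leaning. The intervals overlapped in both sorts. The rule chose members on Mki67 and Top2a. Mki67 had 377 to 618 CPM in G2/M-leaning and 86.9 to 242 CPM in S-leaning members of the 4 libraries. The shares therefore describe the cells the rule took and not the cycle of the whole crypt. In the macrophage sorts labelled IL34KO and WT 68 and 28 members, and in the T-cell sorts 41 and 43, lay within 5 points of a cutoff, so these are ranges of a continuous measure and not cell types. Free RNA can add UMIs to any cell, and its part in the classes was not tested.

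**Figure D2:**
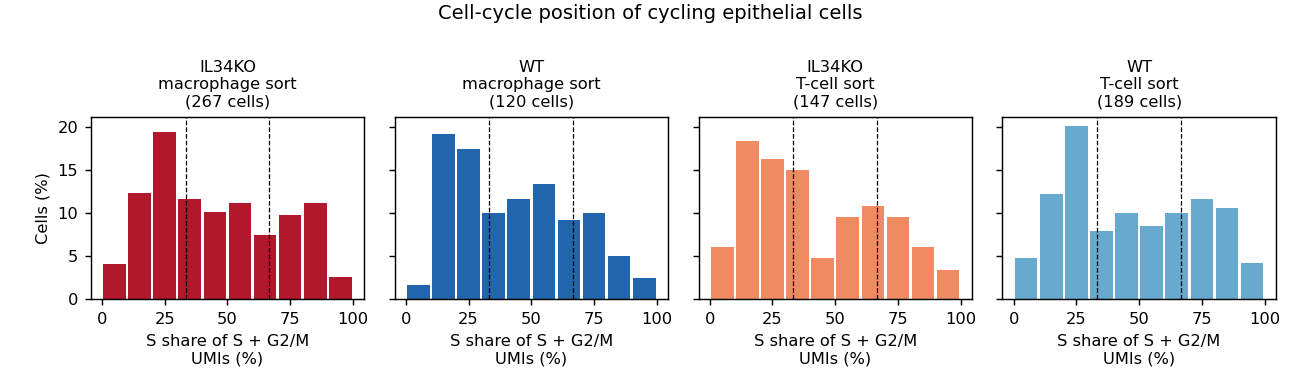
Share of members (y axis, %) by the S list's share of their S and G2/M UMIs (x axis, %, bins of 10 points) in each library, for the 723 members with at least 10 such UMIs. Dashed lines mark the cutoffs at 1/3 and 2/3. The G2/M side holds more cells than the S side in all 4 libraries, among cells chosen on Mki67 and Top2a, so the balance tests nothing.

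Genes outside these lists differed between the 2 ends of the cycle. Lgr5 was higher in S-leaning than in G2/M-leaning members, except that the values were close in the T-cell sort labelled WT, where both rest on few UMIs. It had 49.2 CPM in S-leaning and 12.7 CPM in G2/M-leaning members of the macrophage sort labelled IL34KO, and 22.3 and 0.963 CPM in that labelled WT. Within the T-cell sorts it had 59.1 and 7.88 CPM in S-leaning and G2/M-leaning members under the IL34KO label, and 6.24 and 4.82 CPM under the WT label. Krt20 went the other way, with 17.5 to 44.6 CPM in S-leaning and 43.3 to 117 CPM in G2/M-leaning members. So did Reg3b, an antimicrobial lectin gene, with 1249 and 2646 CPM in S-leaning and G2/M-leaning members of the macrophage sort labelled IL34KO and 105 and 1133 CPM in that labelled WT. In the T-cell sorts Reg3b had 303 and 1128 CPM in S-leaning and G2/M-leaning members under the IL34KO label, and 58.6 and 744 CPM under the WT label. Muc2 was higher in S-leaning members, with 1697 to 3128 CPM, against 812 to 2103 CPM in G2/M-leaning ones. The levels of Lgr5, Reg3b and Muc2 rest on few cells, as the shares given next show.

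Lineage genes were concentrated in a minority of members, and in a minority of non-cycling cells too. The highest 10% of members held 75.7% to 84.5% of all Muc2 UMIs and 83.9% to 93.0% of those of the absorptive gene Car1. They held 89.1% to 98.0% of Reg3b UMIs and 93.2% to 100% of Lgr5 UMIs, over the 4 libraries. In non-cycling cells the highest 10% held 61.0% to 89.6% of Muc2 UMIs, 76.0% to 94.8% of Car1 and 94.8% to 98.9% of Reg3b. Lgr5 had a UMI in only 5.75% to 15.6% of members at full depth, so its high share was largely fixed in advance. The part of cell depth in these shares was not tested. Members in which the 20 goblet genes made up at least 2% of UMIs were 11.5% (8.12 to 15.7) and 17.6% (11.5 to 25.2) in the macrophage sorts labelled IL34KO and WT, and 12.1% and 14.0% in the T-cell sorts. Among non-cycling cells the shares were 23.9% and 36.8% in those macrophage sorts, and 18.3% and 19.2% in those T-cell sorts. Members with at least 2% absorptive genes were rarer, at 2.71% and 1.53% in the macrophage sorts and 9.77% and 6.51% in the T-cell sorts labelled IL34KO and WT. Non-cycling cells reached 20% and 7.89% in the macrophage sorts and 43.4% and 46.1% in the T-cell sorts. None of 3524 cycling leukocytes, which were chosen without UMIs of the epithelial gate genes, reached either cutoff. The shares depend on the cutoff. At 1% the goblet shares of members were 17.6% and 28.2% in the macrophage sorts labelled IL34KO and WT and 18.4% and 20.9% in the T-cell sorts, and at 5% they were 1.69% and 4.58%, and 1.72% and 2.79%. The absorptive shares at 1% were 7.12% and 7.63% in those macrophage sorts and 17.8% and 9.77% in those T-cell sorts, and at 5% they were at most 0.93%. In the macrophage sort labelled WT 15 of 131 members had between 1.5% and 2.5% goblet UMIs.

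**Figure D3:**
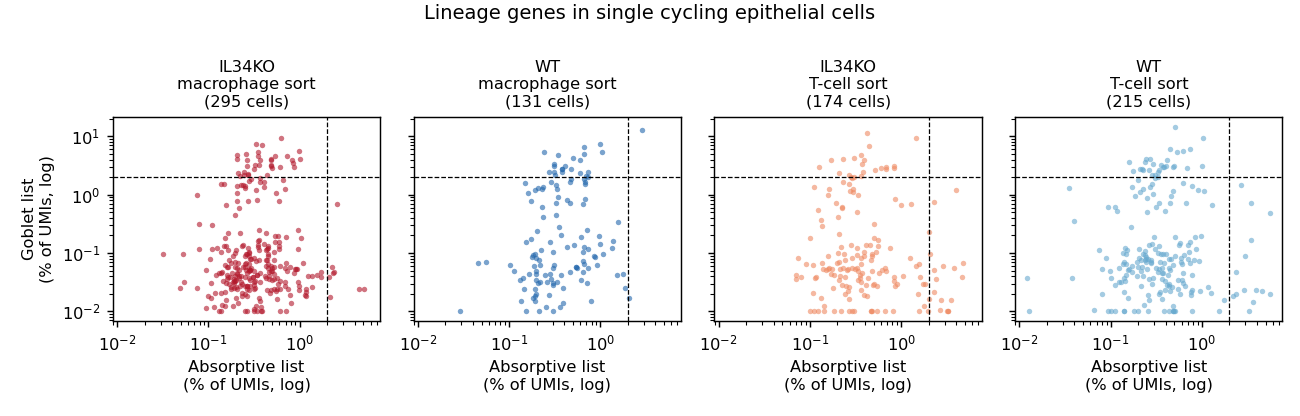
Goblet genes (y axis) against absorptive genes (x axis), each as % of a cell's UMIs on log axes, for every member of the 4 libraries. Values below 0.01% are drawn at 0.01%, dashed lines mark 2%, and 1 cell, in the macrophage sort labelled WT, lies beyond both lines.

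Members with many goblet UMIs had secretory regulators as well. The goblet-high members numbered 34 and 23 in the macrophage sorts labelled IL34KO and WT and 21 and 30 in the T-cell sorts, and the absorptive-high members 8 and 2 in those macrophage sorts and 17 and 14 in those T-cell sorts. Atoh1, the transcription factor that sets secretory fate, had 71.3 and 99.6 CPM in goblet-high members of the macrophage sorts labelled IL34KO and WT, and 11.5 and 16.7 CPM in members that were neither goblet-high nor absorptive-high. Within the T-cell sorts labelled IL34KO and WT it had 124 and 138 CPM in goblet-high members, and 16.3 and 19.2 CPM in the others. Reg4, a lectin gene of deep crypt secretory cells, had 465 to 759 CPM in goblet-high members and 34.6 to 121 CPM in the others. Hes1, the Notch target that opposes secretory fate, ran from 54.7 to 118 CPM in goblet-high members and from 94.3 to 158 CPM in the others. Ccnb1 had 22.4 to 59.5 CPM in goblet-high members, against 61.2 to 67.2 CPM in the others. Absorptive-high members had 304 to 712 CPM of Cdkn1a, against 65.0 to 116 CPM in the others, and 8.22 to 54.9 CPM of Ccnb1. The 712 CPM came from the 2 cells of the macrophage sort labelled WT, 1 of which was goblet-high as well. These cutoffs were set after the values were seen, and the part of doublets in these groups was not tested. Calls of the doublet caller Scrublet removed 8 and 5 members in the macrophage sorts labelled IL34KO and WT and 3 and 6 in the T-cell sorts.

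Few genes were past 1.5-fold between recipients in both sorts. Of 6942 genes compared, with at least 20 CPM in 1 library of each sort, 8 (0.115%) were at least 1.5-fold higher in members labelled IL34KO in both sorts and 3 (0.0432%) at least 1.5-fold lower. In the macrophage sort alone 88 of 7180 genes (1.23%) were higher and 95 (1.32%) lower, and in the T-cell sort alone 121 of 7199 (1.68%) were higher and 41 (0.57%) lower. The 8 higher genes were Reg3b, Fut9, Ifit2, Krt20, Snhg6 and 3 predicted genes, and the 3 lower ones were Sct, Pcdh17 and Lgals2. The log2 ratio had the same sign in both sorts for 3744 of the 6942 genes, and over all genes its median was 0.04 in the macrophage sort and 0.08 in the T-cell sort.

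**Figure D4:**
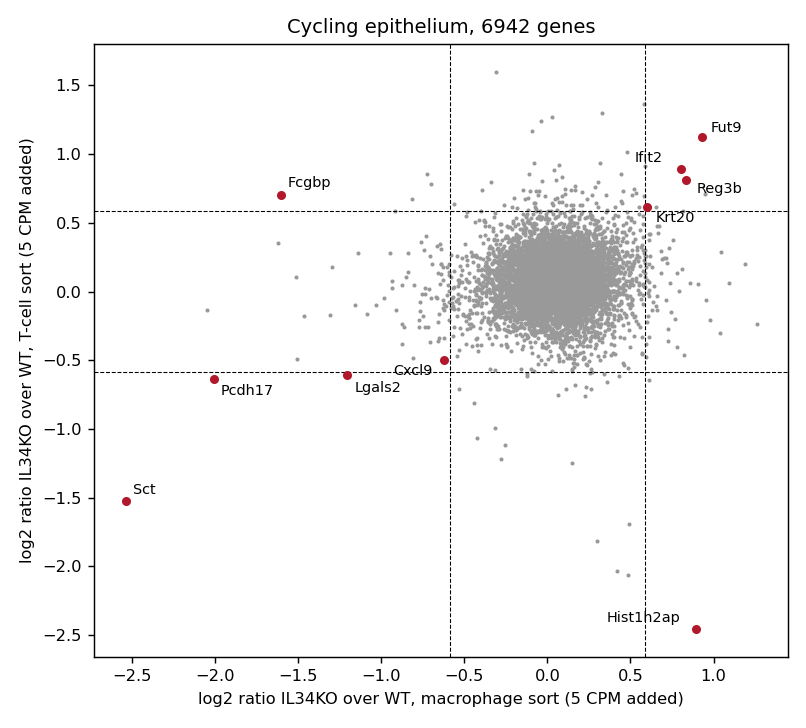
Log2 ratio of IL34KO to WT members in the macrophage sort (x axis) and the T-cell sort (y axis), with 5 CPM added, for 6942 genes (grey points). Dashed lines mark 1.5-fold; 8 genes lie beyond both lines at the upper right and 3 at the lower left, and named genes are drawn in red.

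Reg3b, the antimicrobial C-type lectin induced in injured gut, was the most abundant of these. It had 1991 CPM in members labelled IL34KO and 1114 CPM in members labelled WT of the macrophage sort, and 678 and 384 CPM in members labelled IL34KO and WT of the T-cell sort. The ratios were 1.79 (1.73 to 1.84) and 1.76 (1.65 to 1.89). Single cells decided their size, since 1 cell held 52.1% of the UMIs in the macrophage sort labelled WT. Without the highest cell of each library the log2 ratios were 1.61 and 1.10, against 0.83 and 0.81 with it. With cells held to at least 1000 genes and at most 5% mitochondrial UMIs the log2 ratio in the macrophage sort turned to -1.09, and with Scrublet's doublet calls removed it was 2.99. At 2000 UMIs per cell, 32.5% (27.1 to 38.3) of members labelled IL34KO and 12.1% (6.93 to 19.2) of those labelled WT had a Reg3b UMI in the macrophage sort, and 21.1% (14.9 to 28.4) and 13.2% (8.86 to 18.6) in the T-cell sort. Non-cycling epithelium had shares of 26.9% and 7.46% in the macrophage sorts labelled IL34KO and WT, and 14.6% and 7.95% in the T-cell sorts. The difference was therefore not particular to members. Leukocytes, which should lack the gene, had shares of 8.24% and 1.60% in the macrophage sorts labelled IL34KO and WT, and 1.06% and 0.77% in the T-cell sorts. The share outside epithelium thus moved with the label too in the macrophage sort, and the part of free RNA in the difference was not tested. The related Reg3g had 374 and 226 CPM in the macrophage sorts labelled IL34KO and WT and 191 and 161 CPM in the T-cell sorts, where it did not reach 1.5-fold.

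Fut9, a fucosyltransferase gene, had 35.8 and 16.4 CPM in the macrophage sorts labelled IL34KO and WT, a ratio of 2.18 (1.71 to 2.81), and 49.7 and 20.1 CPM in the T-cell sorts, a ratio of 2.47 (1.84 to 3.35). In the T-cell sort labelled IL34KO 1 cell held 33.6% of its UMIs, and under the stricter cell filters its log2 ratio there was -0.49. Ifit2, an interferon-induced gene, had 28.8 and 14.3 CPM in the macrophage sorts labelled IL34KO and WT and 28.3 and 13.0 CPM in the T-cell sorts. Its ratios were 2.01 (1.54 to 2.64) and 2.18 (1.5 to 3.21), and without the highest cell the log2 ratio in the T-cell sort was 0.54, short of 1.5-fold. Krt20, given above, had a ratio of 1.56 in each sort, and without the highest cell its log2 ratio in the T-cell sort was 0.29. With cells thinned to 2000 UMIs its ratios turned to -0.22 and -0.60. Levels of 13.0 to 49.7 CPM, as for Fut9 and Ifit2, are less than 1 UMI in a typical member of these libraries.

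Of the 3 lower genes, Sct had 4.69 and 51.4 CPM in the macrophage sorts labelled IL34KO and WT and 5.67 and 25.7 CPM in the T-cell sorts labelled IL34KO and WT. Of the WT UMIs 1 cell held 56.9% in the macrophage sort and 1 cell held 59.8% in the T-cell sort, and without the highest cells the log2 ratios were -1.62 and -0.62, against -2.54 and -1.52. Pcdh17, a protocadherin gene, had 8.76 and 50.4 CPM in the macrophage sorts labelled IL34KO and WT and 39.0 and 63.5 CPM in the T-cell sorts, with log2 ratios of -2.01 and -0.64. Under the stricter cell filters the ratio in the T-cell sort was -0.09. Lgals2, a galectin gene, had 17.9 and 47.7 CPM in the macrophage sorts labelled IL34KO and WT and 14.3 and 24.5 CPM in the T-cell sorts, with 45.6% of the UMIs of the macrophage sort labelled WT in 1 cell. With a cycling gate of 4 UMIs its log2 ratio in the macrophage sort was -0.10, against -1.20.

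Cxcl9, an interferon-gamma-induced chemokine that draws T cells, was lower in members labelled IL34KO, just past 1.5-fold in 1 sort. It had 276 and 428 CPM in the macrophage sorts labelled IL34KO and WT, a ratio of 0.645 (0.608 to 0.684), and 169 and 240.4 CPM in the T-cell sorts, a ratio of 0.702 (0.627 to 0.785). Under the stricter cell filters the log2 ratios were -1.06 and -0.08 in the macrophage and T-cell sorts, against -0.62 and -0.50, and with cells thinned to 2000 UMIs the ratio in the T-cell sort was -0.20. Cxcl10, a chemokine of the same receptor, had 227 and 312 CPM in the macrophage sorts and 138 and 183 CPM in the T-cell sorts labelled IL34KO and WT. At 2000 UMIs 21.9% and 29.8% of members had a Cxcl9 UMI in the macrophage sorts labelled IL34KO and WT, and 22.4% and 24.4% in the T-cell sorts, with overlapping intervals. Leukocytes had far higher shares, 39.3% to 53%. Non-cycling epithelium had 9.36% and 13.4% in the macrophage sorts labelled IL34KO and WT, and 8.39% and 9.04% in the T-cell sorts. These shares were below those of members in each library. They too were lower under the IL34KO label, with overlapping intervals. The part of free RNA from leukocytes in the members' Cxcl9 was not tested.

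Few cell-cycle genes were past 1.5-fold between recipients, and few genes of any kind were. Over all genes compared, 1.23% were higher and 1.32% lower in the macrophage sort, and 1.68% and 0.57% in the T-cell sort. A short list with no gene past the fold is therefore no result about that list. None of 30 G2/M genes was 1.5-fold higher or lower in members labelled IL34KO in either sort, with median log2 ratios of 0.22 in the macrophage sort and 0.08 in the T-cell sort. Of 24 S-phase genes compared 2 were higher and none lower in the macrophage sort, with a median of 0.38, and none was past the fold in the T-cell sort, with a median of -0.02. Pola1, the catalytic subunit of DNA polymerase alpha, was 1 of those 2, with 87.9 and 52.7 CPM in the macrophage sorts labelled IL34KO and WT and 91.7 and 77.1 CPM in the T-cell sorts. Histone genes had medians of 0.51 and 0.05, with 5 of 14 higher in the macrophage sort and 2 of 13 lower in the T-cell sort. Hist1h2ap had 460.2 and 245 CPM in the macrophage sorts labelled IL34KO and WT and 39.7 and 240.2 CPM in the T-cell sorts, low in the same library in which Rpl35 and Gm10076 were low. Histone genes of this cluster are near-identical copies, so reads may be split among them and their single values are uncertain.

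Stem cell genes leaned higher under the IL34KO label in the macrophage sort, with a median log2 ratio of 0.41 over 13 genes and 2 past 1.5-fold, against 0.15 over 14 genes and 1 past it in the T-cell sort. The shares of all genes higher by this fold were 1.23% in the macrophage sort and 1.68% in the T-cell sort. Lgr5 had 31.0 CPM from 251 UMIs in the macrophage sort labelled IL34KO and 7.07 CPM from 37 UMIs in that labelled WT, a ratio of 4.38 (3.10 to 6.37). In the T-cell sort it had 19.0 CPM from 57 UMIs and 12.1 CPM from 41 UMIs under the IL34KO and WT labels, a ratio of 1.57 (1.03 to 2.40). In the T-cell sort labelled IL34KO 1 cell held 40.4% of the Lgr5 UMIs. At 2000 UMIs the shares of members with an Lgr5 UMI were 3.89% (1.96 to 6.85) and 3.23% (0.89 to 8.05) in the macrophage sorts labelled IL34KO and WT, and 1.97% and 4.39% in the T-cell sorts, with overlapping intervals. Rnf43, a Wnt feedback ligase gene, had 82.0 and 53.5 CPM in the macrophage sorts and 64.3 and 47.6 CPM in the T-cell sorts labelled IL34KO and WT. Axin2, a direct Wnt target, had 19.0 and 13.6 CPM in those macrophage sorts and 22.3 and 19.2 CPM in those T-cell sorts, inside 1.5-fold in both.

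Goblet genes were lower under the IL34KO label in the macrophage sort. There 9 of 20 were at least 1.5-fold lower, against 1.32% of all genes, with a median log2 ratio of -0.42. In the T-cell sort 1 of 19 was lower and 1 higher, with a median of -0.08. Summed over the 20 genes, members had 8187 and 12309 CPM in the macrophage sorts labelled IL34KO and WT. Non-cycling epithelium had 18797 and 28300 CPM there, so the difference was not particular to members. In the T-cell sorts members had 7404 and 8241 CPM, and non-cycling epithelium 16816 and 12623 CPM. The difference between the sorts was not tested. Tff3, the trefoil factor of mucus, had 229 and 665 CPM in the macrophage sorts labelled IL34KO and WT and 222 and 206 CPM in the T-cell sorts. Zg16 had 234 and 986 CPM in the macrophage sorts and 141 and 155 CPM in the T-cell sorts labelled IL34KO and WT. In the macrophage sort labelled WT 1 cell held 68.9% of the Zg16 UMIs and 1 cell held 26.2% of the Tff3 UMIs. Reg4 had 102 and 289 CPM in those macrophage sorts, with 30.2% of the WT UMIs in 1 cell. Muc2 stayed inside 1.5-fold in both sorts, with ratios of 0.824 and 0.904.

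**Figure D5:**
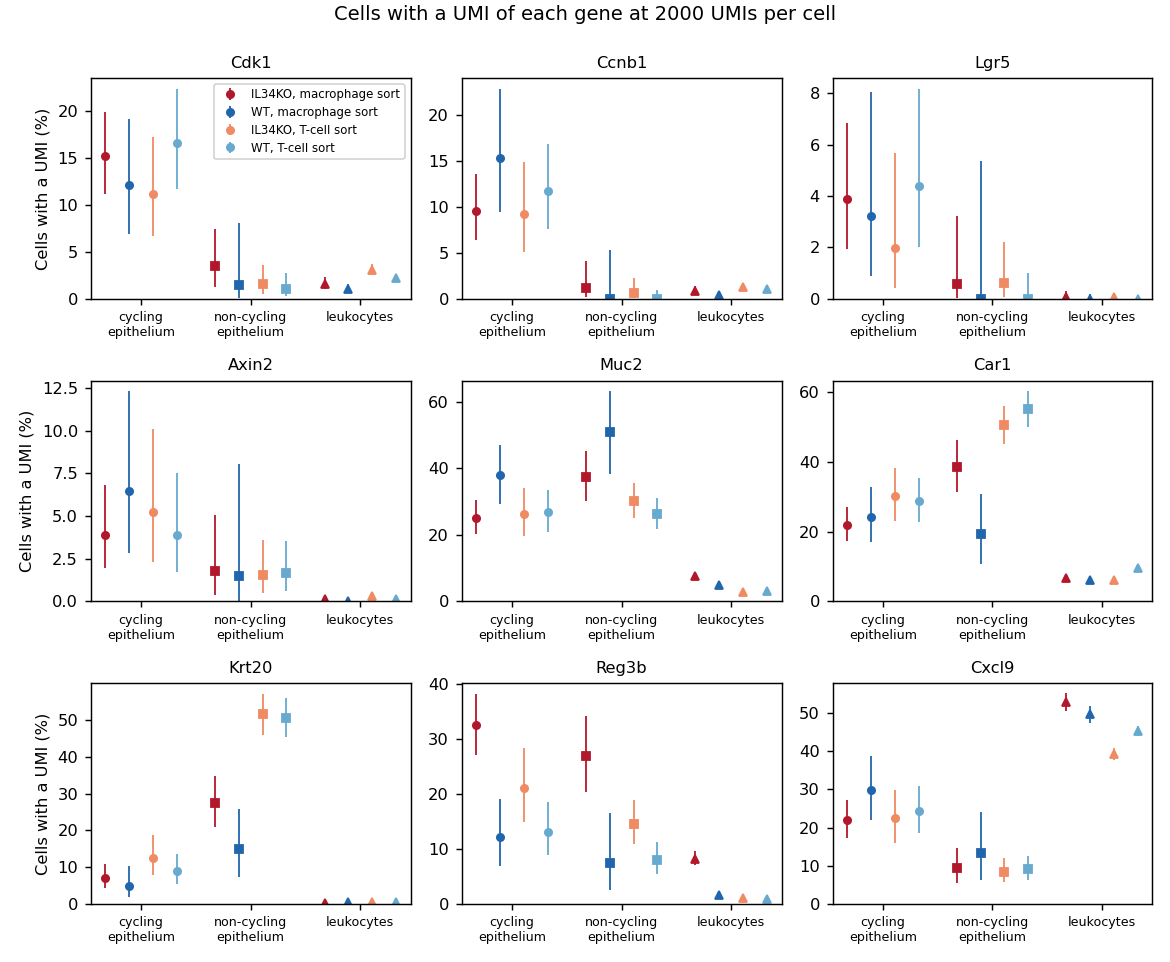
Share of cells with at least 1 UMI (y axis, %) of 9 genes after thinning each cell to 2000 UMIs, in members, non-cycling epithelium and leukocytes of the 4 libraries. Bars are exact 95% intervals. Cdk1, Ccnb1 and Lgr5 were more frequent in members than in both other classes, and Cxcl9 was most frequent in leukocytes.

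Interferon and antigen-presentation genes were measured in members of every library, and few were past 1.5-fold between recipients. Among all genes compared, 1.23% were higher and 1.32% lower in the macrophage sort, and 1.68% and 0.57% in the T-cell sort. Cd74, the MHC class II invariant chain, had 1045 and 1150 CPM in the macrophage sorts labelled IL34KO and WT and 1169 and 976 CPM in the T-cell sorts. At 2000 UMIs per cell 83.4% to 86.8% of members had a UMI of it. So had 65.7% to 85.4% of non-cycling cells and 79.6% to 94.1% of leukocytes. Levels differed more, since the MHC class II list summed to 2744 to 3075 CPM in members and 17638 to 21937 CPM in cycling leukocytes. Non-cycling epithelium had 2115 to 4084 CPM of the list. The part of free RNA from leukocytes in the members' values was not tested. None of 8 MHC class II genes was past 1.5-fold in either sort, with medians of 0.01 and 0.08. Of the MHC class I list none of 13 was past it in the macrophage sort, and 3 of 14 were higher in the T-cell sort, with a median of 0.26. H2-T23, a non-classical class I gene, was among those 3, with 154 and 59.4 CPM in the T-cell sorts labelled IL34KO and WT, against 79.6 and 62.3 CPM in the macrophage sorts. Of the interferon-gamma list 1 of 23 was lower in the macrophage sort and 3 of 20 higher in the T-cell sort. Ido1, which encodes a tryptophan-degrading enzyme, had 140.0 and 78.3 CPM in the T-cell sorts labelled IL34KO and WT and 107 and 85.6 CPM in the macrophage sorts.

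The dissociation stress list, immediate-early and heat-shock genes that rise while tissue is taken apart, had a median log2 ratio of -0.48 in the macrophage sort, with 6 of 19 genes lower and 1 higher, and 0.06 in the T-cell sort, with 3 higher. Atf3, a stress-induced transcription factor, had 550.1 and 803 CPM in the macrophage sorts labelled IL34KO and WT and 622 and 862 CPM in the T-cell sorts. Its log2 ratio in the macrophage sort, -0.54, turned to 0.30 under the stricter cell filters and to 0.36 with cells thinned to 2000 UMIs, and was -0.16 with cells weighted equally. Hspa1b, an inducible HSP70 gene, had 124 and 84.6 CPM in the macrophage sorts and 38.0 and 20.7 CPM in the T-cell sorts labelled IL34KO and WT. Under the stricter cell filters its log2 ratio in the macrophage sort was -0.04, against 0.52. The part of handling in the other differences was not tested. Of 14 p53 and DNA damage genes 3 were lower and 1 higher in the macrophage sort, and 1 was higher in the T-cell sort. Gdf15, a p53- and stress-induced cytokine gene, had 40.5 and 108 CPM in the macrophage sorts labelled IL34KO and WT and 73.0 and 83.0 CPM in the T-cell sorts. None of 16 cell-death genes, 13 unfolded protein response genes, 14 glycolysis and hypoxia genes or 18 oxidative phosphorylation genes was past 1.5-fold in either sort. For comparison, 1.23% of all genes were higher and 1.32% lower in the macrophage sort, and 1.68% and 0.57% in the T-cell sort. Among regenerative and fetal-like genes 2 of 11 were lower in the macrophage sort and none was past the fold in the T-cell sort. Areg, an EGF-receptor ligand gene, was 1 of those 2, with 231 and 394 CPM in the macrophage sorts labelled IL34KO and WT, and 346 and 349 CPM in the T-cell sorts.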

How the data were processed

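Single-cell RNA was measured with 10x Genomics droplet kits in 6 libraries of sorted mouse colon cells, 4 of which enter here. The authors deposited UMI count matrices made with Cell Ranger 7.0.1 on mm10, per the submitters' processing notes, with no normalization; each whole number counts 1 RNA molecule. Barcodes had at least 500 UMIs in all.

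The members and gene lists (32 lists, 522 genes) were chosen with earlier results of these data known, so neither is independent of them. For each class and library, UMIs were added up over cells and scaled to CPM. Ratios carry exact conditional binomial 95% intervals and shares exact Clopper-Pearson intervals; both cover counting error only. Log2 ratios had 5 CPM added. There being 1 library per group, nothing was tested. For IL34KO over WT and for members over non-cycling cells, named genes were the 12 highest and 12 lowest by the ratio nearest 0. Each list added its 4 most abundant and 4 most moved genes, and some genes were always named. Mcm7, Rpl35 and Gm10076 were chosen after their values were seen.

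Doublets were kept; Scrublet calls were an alternative. Its automatic threshold called 0 cells in both macrophage sorts, where the expected number at 0.8% per 1000 cells was removed instead. Other alternatives were cell filters, gates, thinning, floors, equal weight per cell, and scaling by edgeR 4.0.16 (TMM) and DESeq2 1.42.0 (size factors). Python 3.11.15, numpy 2.4.6, scipy 1.17.1, pandas 2.3.3, scanpy 1.11.5 and R 4.3.3 were used. The counting of genes past a fold was tested on simulated data. Promoters came from RefSeq (GRCm38.p6). Some genes are not reported here.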

Additional observations from a re-analysis of the deposited data

Results flagged for a closer look

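Fcgbp, a mucus protein gene, moved in opposite directions in the 2 sorts. Its log2 ratio of members labelled IL34KO to WT was -1.60 in the macrophage sort and 0.71 in the T-cell sort. Hist1h2ap, a histone gene with near-identical copies, had a log2 ratio of 0.90 in the macrophage sort and -2.46 in the T-cell sort, where the library labelled IL34KO also stood apart for Rpl35 and Gm10076 in leukocytes. Each sort has 1 library per recipient, and the difference between sorts was not tested for either gene. Of 6942 genes compared, 7 were past 1.5-fold in opposite directions in the 2 sorts.

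Outside the 4 libraries, 7 cells of the GVHD macrophage library and 1 cell of the BM macrophage library met the same conditions. These libraries enter no comparison here.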

How the results depend on the processing

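No paired analysis was possible because the labels give 1 library per group and number no replicates, so no replicate could be left out either. Removing Scrublet doublets, an epithelial gate of 10 UMIs and removing shared barcodes changed none of the 4 gene counts by over 1.5 times and moved no share of cycling cells beyond its interval. Cycling cells as a share of epithelium in the T-cell sorts labelled IL34KO and WT were 19.5% and 26.2% with looser cell filters, and 29.8% and 34.8% with stricter ones. With a cycling gate of 4 UMIs they were 40.1% and 42.0% in the macrophage sorts and 17.5% and 22.4% in the T-cell sorts, and with cells thinned to 2000 UMIs 23.9%, 15.8%, 13.7% and 13.7%. Genes higher under the IL34KO label in both sorts, 8 in the report, numbered 3 with looser and 14 with stricter filters, 373 after thinning, 4 with TMM, 4 with DESeq2 size factors, 26 with cells weighted equally, 4 at a floor of 50 CPM and 14 at 5 CPM. Lower genes, 3 in the report, numbered 5, 6 and 213 with looser filters, stricter filters and thinning, and 1 and 5 at floors of 50 and 5 CPM. Genes lower in members than in non-cycling cells, 35 in the report, numbered 109 with looser filters, 55 with the gate of 4, 92 after thinning, 64 with equal weights and 19 at 50 CPM, where the higher ones numbered 116. Among log2 ratios past 1.5-fold, those that reversed were Fut9 in the T-cell sort (-0.49 with stricter filters, -0.85 thinned), Reg3b (-1.09 in the macrophage sort with stricter filters, -0.43 in the T-cell sort thinned), Krt20 thinned (-0.22 and -0.60 in the macrophage and T-cell sorts), Snhg6 thinned (-0.44 and -1.98) and Spink1 in the T-cell sort without its highest cell (0.17). Among smaller ratios several also changed sign, of which Atf3 (0.30 with stricter filters, 0.36 thinned) and Hspa1b (-0.04 with stricter filters), both in the macrophage sort, are named in the report. The cause was not tested. Thinning leaves few UMIs of such genes.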
